A study of Mus musculus with 6 samples.

Results

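Complex I, or NADH:ubiquinone oxidoreductase, is the enzyme through which electrons from NADH enter the mitochondrial respiratory chain. Its genes were read as the rows of the count table that are protein coding and whose symbol starts with Nduf, 46 of 18543 rows and of 13541 protein-coding rows. By textbook role these were 7 nuclear-encoded core subunits, 29 accessory subunits, 8 assembly factors with Ndufaf symbols and 2 genes that only carry the name. The 2 are Ndufa4, now assigned to complex IV, and its relative Ndufa4l2. Ndufa4l2 was at most 0.23 CPM (estimated counts per 1000000 counts of library size, with sizes adjusted by the TMM method) and was the only one that did not pass the filter on low counts. The other 44 complex I genes were all tested.

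The RNA came from group 2 innate lymphoid cells (ILC2s, tissue lymphocytes that make the type 2 cytokines IL-5 and IL-13) sorted from lung tissue of C57BL/6 mice that were 8 weeks old. 3 libraries are labelled Atg5-/- (KO 1 to KO 3) and 3 are labelled wild type (WT 1 to WT 3). Atg5 is needed to extend the autophagosome membrane. Both genotypes had received intranasal IL-33, 0.5 µg on each of 3 days, with cells isolated on day 4, so no unstimulated cells were measured. The labels give no Cre driver, no deleted exon and no sex, and do not say that each library came from its own mouse. P-values therefore measure the spread between these libraries, which may be technical.

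Complex I is L-shaped. The matrix arm takes electrons from NADH through a flavin and a chain of iron-sulfur clusters to ubiquinone, and the membrane arm pumps protons. The core subunits that carry out this chemistry are split between genomes: those of the matrix arm are nuclear, and those of the membrane arm are encoded by the mt-Nd genes of mitochondrial DNA. The accessory subunits surround the core, and the assembly factors help to build the enzyme without remaining in it. Damaged mitochondria are among the cargo of autophagy.

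The library labels have to be read with the targeted gene in view. Atg5 (chr10:44268358-44364291, plus strand, mm10) had 23.0, 25.6 and 52.2 CPM in KO 1, KO 2 and KO 3, against 66.3, 71.8 and 21.8 CPM in WT 1, WT 2 and WT 3. The library labelled WT 3 was thus below every KO library, and the library labelled KO 3 lay closer to WT 1 than to KO 1. By edgeR's quasi-likelihood test Atg5 did not pass with all 6 libraries (log2 fold change -0.67, SE 0.50, adjusted p 0.478). Without the library labelled WT 3 it passed narrowly (log2 fold change -1.03, SE 0.33, edgeR adjusted p 0.0489). Over all tested genes the library labelled WT 3 correlated at 0.979 to 0.991 with the KO libraries and at 0.946 and 0.948 with WT 1 and WT 2 (log2 CPM, across genes). Directions below are between labels, and counts are given with all 6 libraries and without the library labelled WT 3. That library was singled out by its values in these data, and without it the wild type rests on WT 1 and WT 2 alone. The p-values of that fit do not account for this choice and can be too small. Depth was alike, at 28827545 to 33662979 estimated counts in the KO libraries and 30094216 to 30761987 in the WT libraries. Complex I genes other than Ndufa4l2 had at least 279 counts in every library.

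With all 6 libraries no complex I gene passed the threshold of an adjusted p below 0.05 in edgeR, where the background was 0% of 14052 genes in either direction. At an unadjusted p below 0.05 there were 3 of 44, or 6.82%, beside 14.4% of all genes. DESeq2 also called none of the 44, beside 0.107% of all genes called higher and 2.19% called lower. The fold change, KO over WT label, was positive for 37 of 44, beside 51.1% of all genes tested. The median log2 was 0.26, beside 0.02 over all genes tested. Once the library labelled WT 3 was left out, 24 of 44 complex I genes, or 54.5%, rose in the KO libraries, where the background was 17.7% of 14743 genes. 1 of 44, Ndufv3, fell, where the background was 16.1%. The median log2 fold change of the 44 was then 0.39. These are bulk libraries, so more of a transcript per cell and more cells that hold it cannot be told apart.

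**Figure D1:**
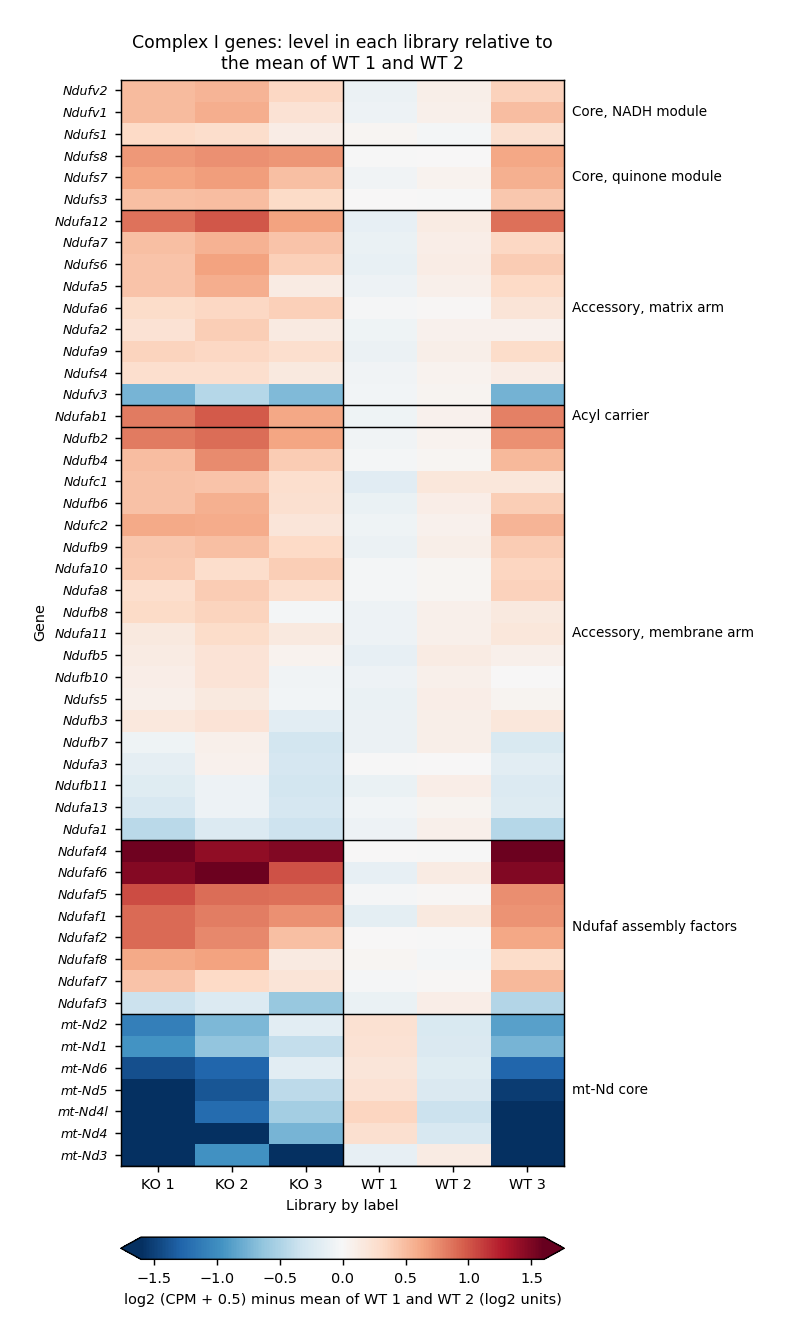
Heat map of 43 complex I genes and the 7 mt-Nd genes in the 6 libraries, KO columns left of WT columns. Colour is the log2 of CPM plus 0.5 minus the mean of WT 1 and WT 2, with rows grouped by role. The column of the library labelled WT 3 resembles the KO columns for most rows, and most assembly factors stand further from WT 1 and WT 2 than most accessory subunits do.

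The library that breaks the pattern by label is the same one for most members. The library labelled WT 3 was above both WT 1 and WT 2 for 33 of 44 complex I genes (75%), beside 43.2% of all genes. It was below both for 7 of 44 (15.9%), beside 43.0% of all genes. It was thus outside the range of WT 1 and WT 2 for most of all genes too, in both directions alike. It lay within the range of the KO libraries for 32 of 44 (72.7%), beside 55.9% of all genes. Within the KO libraries, KO 3 was the lowest for 36 of 44 (81.8%), beside 39.8% of all genes. In each of the 3 classes the median distance from WT 1 and WT 2 was smallest, among the KO libraries, in KO 3. Summed over the 7 nuclear core subunits, levels were 1103, 1124 and 1005 CPM in KO 1, KO 2 and KO 3, against 769.7, 811.8 and 1062 CPM in WT 1, WT 2 and WT 3. The 29 accessory subunits summed to 3232, 3445 and 2955 CPM in the KO libraries, against 2604, 2900 and 3095 CPM in the WT libraries. The 8 Ndufaf genes summed to 313.5, 299.6 and 265.2 CPM in the KO libraries, against 169.8, 183.2 and 290.5 CPM in the WT libraries. In each of these sums every KO library was above WT 1 and WT 2, and the library labelled WT 3 was above KO 3.

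**Figure D2:**
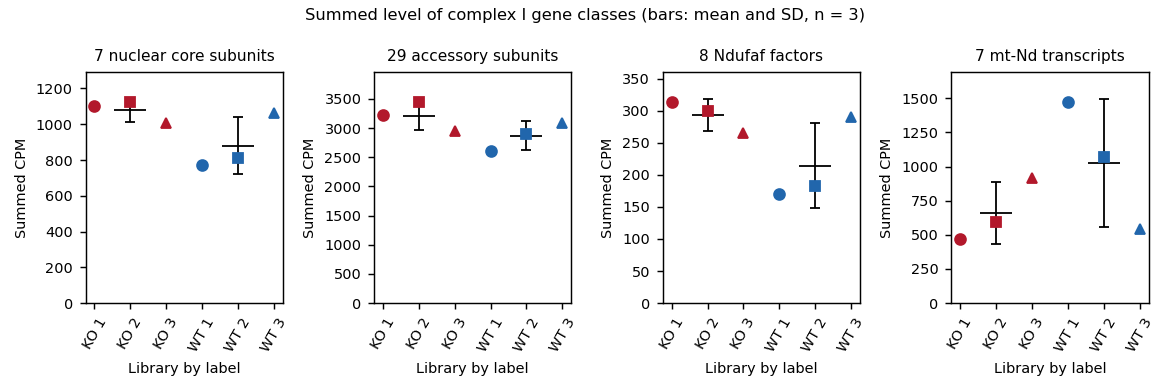
Summed CPM of the nuclear core subunits, the accessory subunits, the Ndufaf assembly factors and the mt-Nd genes, 1 point per library with KO left of WT and bars for the mean and SD of each group of 3. In the nuclear groups the library labelled WT 3 lies among the KO libraries, and in the mt-Nd group it lies at 539.9 CPM, below WT 1 and WT 2 at 1472 and 1072 CPM.

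Promoter sequence was available for 39 of the 44 genes in the RefSeq table for GRCm38.p6 (the assembly also called mm10), as 250 bases before and 50 bases after each start. 5 motifs known from promoters of respiratory genes were searched on both strands. The NRF1 motif, GCGC and TGCGC with any 1 base between them, was in at least 1 window of 9 of the 39 genes (23.1%). It was in 12.1% of all tested genes with promoter sequence. The YY1 motif ATGGCGGC was in 7 (17.9%) and in 5.88% of all. In 6 of the 7 it lay only after the start, at 14 to 39 bases. The ETS motif CCGGAAG was in 6 (15.4%) and in 21.3% of all, the cyclic AMP response element TGACGTCA in 3 (7.69%) and in 3.68% of all, and the E-box CACGTG in 2 (5.13%) and in 11.9% of all. In 16 of the 39 none of these was found. A match says only that these letters are present, and no binding was measured here. The 250 bases before the start are printed below, 5′ to 3′ on the strand of the gene, for the Ndufaf gene with the largest fold change without the library labelled WT 3 (Ndufaf4), for the gene with the most NRF1 matches (Ndufb4), for an ETS and a cyclic AMP response element match (Ndufaf1 and Ndufb2), and for the subunit that fell (Ndufv3, in which none of the 5 motifs was found). Capitals mark the matches.
Ndufaf4, chr4:24897833-24898082, plus strand: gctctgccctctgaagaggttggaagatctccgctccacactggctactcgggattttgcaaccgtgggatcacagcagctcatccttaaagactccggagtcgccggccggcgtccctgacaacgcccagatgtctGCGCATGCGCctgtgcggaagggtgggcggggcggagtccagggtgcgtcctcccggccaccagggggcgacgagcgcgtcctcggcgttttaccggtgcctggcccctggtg
Ndufb4, chr16:37654369-37654618, minus strand: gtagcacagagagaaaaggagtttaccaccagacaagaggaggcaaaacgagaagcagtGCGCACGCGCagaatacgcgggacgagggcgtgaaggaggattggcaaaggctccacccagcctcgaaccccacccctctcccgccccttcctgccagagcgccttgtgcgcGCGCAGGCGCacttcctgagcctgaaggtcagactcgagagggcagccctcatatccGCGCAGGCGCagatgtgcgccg
Ndufaf1, chr2:119662835-119663084, minus strand: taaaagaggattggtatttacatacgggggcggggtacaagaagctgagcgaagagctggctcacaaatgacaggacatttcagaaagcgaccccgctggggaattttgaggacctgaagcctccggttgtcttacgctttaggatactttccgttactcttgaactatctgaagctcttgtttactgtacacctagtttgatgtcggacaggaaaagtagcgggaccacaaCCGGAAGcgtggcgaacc
Ndufb2, chr6:39592315-39592564, plus strand: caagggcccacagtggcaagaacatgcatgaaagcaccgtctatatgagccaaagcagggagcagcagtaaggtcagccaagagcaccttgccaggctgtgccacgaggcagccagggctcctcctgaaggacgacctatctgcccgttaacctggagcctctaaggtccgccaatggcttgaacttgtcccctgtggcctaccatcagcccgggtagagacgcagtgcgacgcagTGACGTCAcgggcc
Ndufv3, chr17:31519865-31520114, plus strand: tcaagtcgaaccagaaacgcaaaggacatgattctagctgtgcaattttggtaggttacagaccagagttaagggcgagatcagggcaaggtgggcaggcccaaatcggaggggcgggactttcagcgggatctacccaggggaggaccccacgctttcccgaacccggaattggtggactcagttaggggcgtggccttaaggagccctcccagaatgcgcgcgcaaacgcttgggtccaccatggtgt
The Ndufaf4 match starts 113 bases before the start, the Ndufaf1 match 18 and the Ndufb2 match 14 bases before it, and Ndufb4 has matches at 191, 79 and 22 bases before it.

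Among the nuclear core subunits all 7 had a positive fold change with all 6 libraries (median log2 0.27), beside 51.1% of all genes. Without the library labelled WT 3, 6 of 7 rose (median 0.46), beside 17.7% of all genes. Ndufs8 (chr19:3908870-3912717, minus strand), which holds iron-sulfur clusters near the ubiquinone site, had 149, 153 and 150 CPM in the KO libraries, against 91.4, 92.4 and 141 CPM in the WT libraries. It was the only core subunit whose KO libraries were all above its WT libraries. Its log2 fold change was 0.48 (SE 0.19, edgeR adjusted p 0.342) with all 6 libraries and 0.72 (SE 0.08, edgeR adjusted p 0.000873) without the library labelled WT 3. Ndufs7, which carries the last iron-sulfur cluster before ubiquinone, had 150, 153 and 135 CPM in the KO libraries, against 92.5, 101 and 144 CPM in the WT libraries. Its groups overlapped through the library labelled WT 3 alone, and without it the log2 fold change was 0.60 (SE 0.10, edgeR adjusted p 0.00377).

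Ndufv1, which binds NADH and the flavin, had 197, 206 and 162 CPM in the KO libraries, against 130, 146 and 195 CPM in the WT libraries. Its partner Ndufv2, an iron-sulfur protein, had 166, 169 and 146 CPM in the KO libraries, against 109, 124 and 150 CPM in the WT libraries. For both, KO 3 was below the library labelled WT 3 and above WT 1 and WT 2. Without the library labelled WT 3 the log2 fold changes were 0.46 for Ndufv1 (SE 0.13, edgeR adjusted p 0.0303) and 0.47 for Ndufv2 (SE 0.11, edgeR adjusted p 0.0156). Ndufs3 is a core subunit of the ubiquinone module of the matrix arm. It had 122, 122 and 107 CPM in the KO libraries, against 87.7, 86.3 and 118 CPM in the WT libraries. KO 3 was again below the library labelled WT 3, and without that library Ndufs3 rose by log2 0.44 (SE 0.10, edgeR adjusted p 0.0145). Ndufs1, the large subunit that holds several iron-sulfur clusters, was the core gene that did not pass in that fit. It had 160, 155 and 138 CPM in the KO libraries, against 130, 125 and 152 CPM in the WT libraries (log2 fold change 0.25, SE 0.10, edgeR adjusted p 0.097). Ndufs1 and Ndufs3 overlap genes on the opposite strand (Eef1b2 and Kbtbd4), and no source used here says whether counting used strand, so their values are uncertain. In all, 16 of the 46 Nduf rows overlap another row of the table, and 11 of the overlapping rows were above 10 CPM.

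The accessory subunits were spread more widely. With all 6 libraries 23 of 29 had a positive fold change (median log2 0.21), beside 51.1% of all genes. Without the library labelled WT 3, 13 of 29 rose and 1 fell (median 0.32), beside 17.7% and 16.1% of all genes. In neither arm did a gene pass with all 6 libraries. In the matrix arm 5 of 9 rose and 1 fell without that library (median 0.35), and in the membrane arm 7 of 19 rose and none fell (median 0.21). Ndufab1, the mitochondrial acyl carrier protein, which serves fatty acid synthesis as well as complex I, also rose. It had 162, 180 and 139 CPM in the KO libraries, against 86.6, 94.7 and 159 CPM in the WT libraries (log2 fold change 0.83, SE 0.13, edgeR adjusted p 0.0028 without the library labelled WT 3). Ndufab1 has a pseudogene row in the table, so reads could have been shared between them.

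Ndufa12, a matrix arm subunit added late in assembly, had 130, 142 and 112 CPM in the KO libraries, against 65.0, 77.9 and 132 CPM in the WT libraries. Ndufb2, of the membrane arm, had 74.98, 78.8 and 65.3 CPM in the KO libraries, against 40.5, 43.7 and 69.97 CPM in the WT libraries. Both were lowest in WT 1 and WT 2, and without the library labelled WT 3 they rose by log2 0.85 (SE 0.14, edgeR adjusted p 0.00346) and 0.80 (SE 0.12, edgeR adjusted p 0.00264). Ndufb2 overlaps Braf on the opposite strand. Ndufa7, of the matrix arm, had 117, 124 and 115 CPM in the KO libraries, against 77.8, 90.2 and 105 CPM in the WT libraries. Ndufs6, a zinc-binding matrix arm subunit, had 84.3, 96.6 and 79.8 CPM in the KO libraries, against 56.5, 66.7 and 81.7 CPM in the WT libraries. Ndufb4, of the membrane arm, had 25.0, 30.0 and 23.5 CPM in the KO libraries, against 17.2, 17.97 and 25.4 CPM in the WT libraries. Of the 3, Ndufa7 did not overlap between labels, and Ndufs6 and Ndufb4 overlapped through the library labelled WT 3. Without it they rose by log2 0.50 (Ndufa7, edgeR adjusted p 0.00946), 0.50 (Ndufs6, edgeR adjusted p 0.0223) and 0.58 (Ndufb4, edgeR adjusted p 0.0329). Ndufb4 was the least abundant subunit per kilobase and near copies of it exist in the genome, so its value is uncertain, and Ndufs6 overlaps Mrpl36 on the opposite strand.

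The other accessory subunits that rose without the library labelled WT 3 were Ndufa6 and Ndufa9 of the matrix arm and Ndufc2, Ndufb6, Ndufb9, Ndufa10 and Ndufa8 of the membrane arm, with log2 fold changes of 0.32 to 0.49 in that fit. Ndufa5, Ndufa2 and Ndufs4 of the matrix arm had 0.24 to 0.41 and did not pass. Of the membrane arm, Ndufc1, Ndufb8, Ndufa11, Ndufb5, Ndufb10, Ndufb3 and Ndufs5 had 0.07 to 0.40 and did not pass either.

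Ndufv3 (chr17:31520115-31531326, plus strand), an accessory subunit at the NADH-binding end of the matrix arm, ran the other way. It had 59.9, 72.8 and 61.5 CPM in the KO libraries, against 97.5, 104 and 59.5 CPM in the WT libraries. Here the library labelled WT 3 was the lowest of all 6, and without it Ndufv3 fell (log2 fold change -0.63, SE 0.12, edgeR adjusted p 0.00608). Ndufv1 and Ndufv2, the core subunits it sits beside, rose in the same fit. Of the membrane arm, Ndufa1, Ndufa13, Ndufb11, Ndufa3 and Ndufb7 had negative fold changes, with log2 values of -0.19 to -0.01 with all 6 libraries. Ndufa1, a small membrane subunit encoded on the X chromosome, had 96.6, 111 and 103 CPM in the KO libraries, against 123, 137 and 94.2 CPM in the WT libraries. It missed the threshold without the library labelled WT 3 (log2 fold change -0.32, SE 0.10, edgeR adjusted p 0.0504) and passed without both libraries numbered 3 (edgeR adjusted p 0.0237), where the background was 22.7% of 14315 genes in each direction. Ndufa3 and Ndufb7 had directions that changed with the settings.

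**Figure D3:**
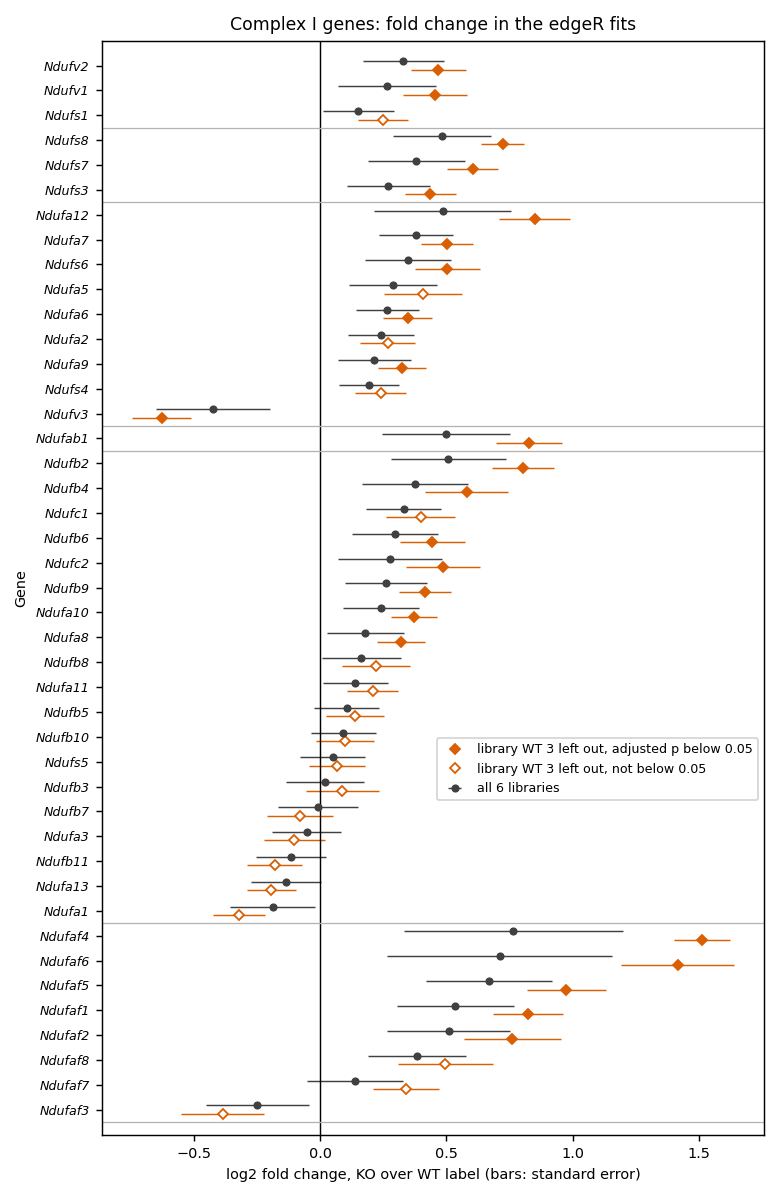
Log2 fold change, KO over WT label, of 43 complex I genes with its standard error, in the edgeR fit to all 6 libraries (dark circles) and without the library labelled WT 3 (orange diamonds, filled where the adjusted p is below 0.05). No dark circle passes, 23 diamonds pass on the positive side and 1, Ndufv3, on the negative side.

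The 8 Ndufaf assembly factors had the largest median fold change of the 3 classes. It was log2 0.52 with all 6 libraries and 0.79 without the library labelled WT 3. In the latter fit 5 of 8 rose, beside 17.7% of all genes. No test of the difference between classes was made. Ndufaf4 (chr4:24898083-24905001, plus strand), a partner of Ndufaf3 in building the ubiquinone module, had 71.1, 64.8 and 67.8 CPM in the KO libraries, against 24.1, 23.8 and 72.1 CPM in the WT libraries. The library labelled WT 3 was here the highest of all 6, and the other 2 WT libraries were the lowest. It is the gene with 1 NRF1 match in the promoter printed above. Its log2 fold change was 0.76 (SE 0.43, edgeR adjusted p 0.384) with all 6 libraries and 1.51 (SE 0.11, edgeR adjusted p 0.000168) without the library labelled WT 3, a fold of 2.85. Ndufaf3 did not follow its partner. It had 24.4, 26.6 and 20.3 CPM in the KO libraries, against 28.98, 33.5 and 22.4 CPM in the WT libraries (log2 fold change -0.39, SE 0.17, edgeR adjusted p 0.116 without the library labelled WT 3). It overlaps Impdh2 on the opposite strand, at 182 CPM, so its value is uncertain.

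Ndufaf6, needed in human cells for an early step of assembly, had 28.8, 31.0 and 21.0 CPM in the KO libraries, against 9.14, 11.1 and 29.1 CPM in the WT libraries. Ndufaf5, which hydroxylates an arginine of Ndufs7, had 26.2, 23.4 and 23.3 CPM in the KO libraries, against 12.3, 12.6 and 21.1 CPM in the WT libraries. Ndufaf1, a part of the assembly complex that builds the membrane arm, had 63.5, 59.6 and 56.1 CPM in the KO libraries, against 30.1, 37.6 and 55.8 CPM in the WT libraries. In Ndufaf5 and Ndufaf1 every KO library was above every WT library, whereas Ndufaf6 overlapped through the library labelled WT 3. Without that library the log2 fold changes were 1.42 for Ndufaf6 (SE 0.22, edgeR adjusted p 0.00302), 0.98 for Ndufaf5 (SE 0.16, edgeR adjusted p 0.0033) and 0.82 for Ndufaf1 (SE 0.14, edgeR adjusted p 0.00385). Ndufaf2, a relative of Ndufa12 that acts late, had 23.0, 20.8 and 16.9 CPM in the KO libraries, against 12.1, 11.9 and 18.7 CPM in the WT libraries, and it also rose (log2 0.76, SE 0.19, edgeR adjusted p 0.0213). It overlaps Smim15 on the opposite strand. Ndufaf7, a protein arginine methyltransferase, and Ndufaf8, a partner of Ndufaf5 in human cells, had log2 fold changes of 0.34 (SE 0.13, edgeR adjusted p 0.0874) and 0.50 (SE 0.19, edgeR adjusted p 0.0841) and did not pass.

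**Figure D4:**
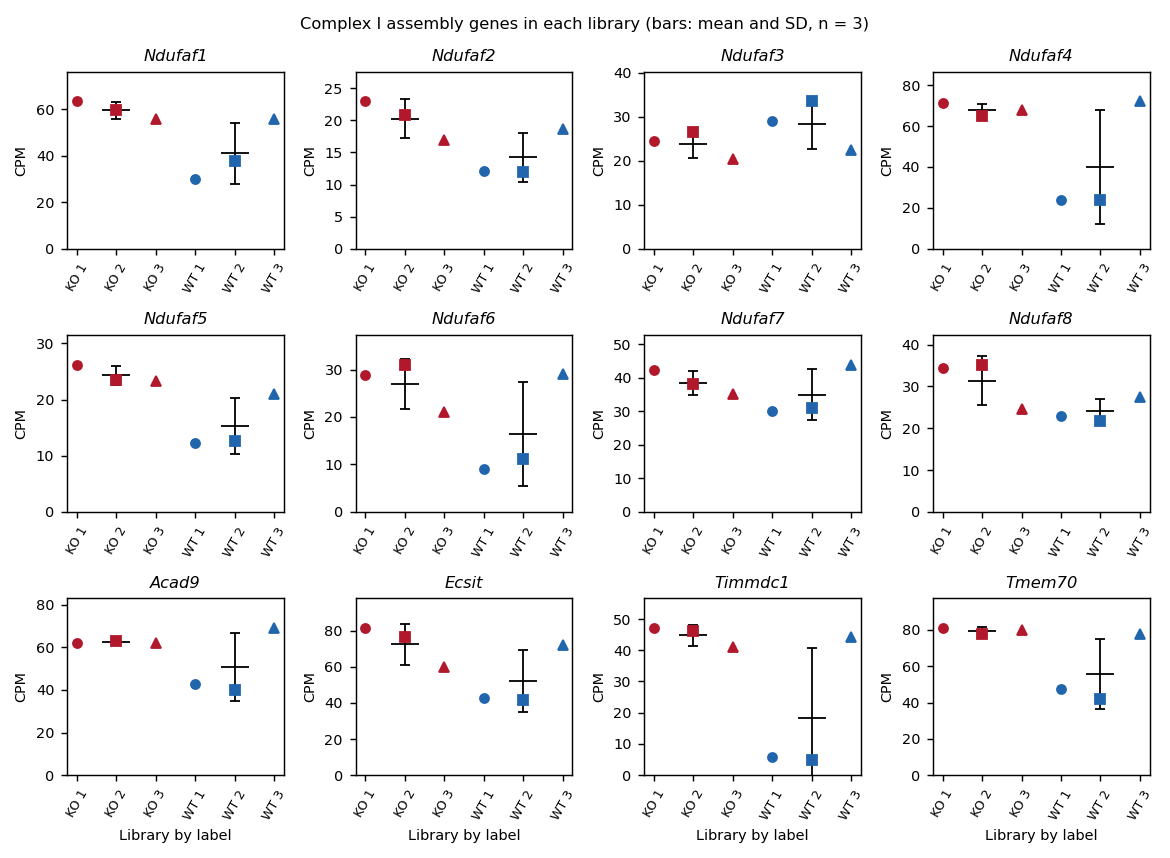
CPM of the 8 Ndufaf genes and 4 other assembly genes by library, KO left of WT, with the mean and SD of each group of 3 and the axis cut at 0. The 4 were picked from 11, and all of them rose without the library labelled WT 3. The 6 of 11 that did not pass in that fit are not drawn. For Timmdc1 and Ndufaf4 the WT group holds 2 low libraries and the library labelled WT 3 at the level of the KO libraries.

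Assembly genes without the Ndufaf name were read from a list of 12, of which 11 were in the table. None passed with all 6 libraries in edgeR (none at an unadjusted p below 0.05, none in DESeq2), and 5 of 11 rose without the library labelled WT 3, beside 17.7% of all genes. The median log2 fold change of the 11 was 0.30 with all 6 libraries and 0.53 without the library labelled WT 3. Both were below the medians of the Ndufaf genes. Timmdc1 (chr16:38498347-38522663, minus strand), a membrane protein needed for the membrane arm in human cells, had 47.2, 46.0 and 41.1 CPM in the KO libraries, against 5.77, 5.01 and 44.3 CPM in the WT libraries. No other assembly gene separated WT 1 and WT 2 as far from the remaining 4 libraries. Its log2 fold change was 1.28 (SE 0.81, edgeR adjusted p 0.411) with all 6 libraries and 3.06 (SE 0.16, edgeR adjusted p 5.03e-05) without the library labelled WT 3, a fold of 8.34. Tmem70, which also serves ATP synthase, had 81.1, 77.8 and 80.0 CPM in the KO libraries, against 47.5, 42.0 and 77.7 CPM in the WT libraries (log2 fold change 0.84 without the library labelled WT 3, SE 0.11, edgeR adjusted p 0.0012). Acad9, Ecsit and Tmem126a rose in that fit by log2 0.59, 0.79 and 0.53. Acad9 and Ecsit work with Ndufaf1. Tmem126b, of the same complex, had 26.8, 26.4 and 24.1 CPM in the KO libraries, against 31.2, 34.8 and 22.3 CPM in the WT libraries (log2 fold change -0.35, SE 0.13, edgeR adjusted p 0.0856). Foxred1, Dmac1, Dmac2, Tmem186 and Nubpl had log2 fold changes of -0.21 to 0.55 in that fit and did not pass.

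The mitochondrially encoded core subunits ran against the nuclear ones. All 7 mt-Nd genes had negative fold changes with all 6 libraries (median log2 -0.73), where 51.1% of all genes had positive ones. None of the 7 passed (none at an unadjusted p below 0.05, none in DESeq2). Summed, they were 472.6, 596.7 and 915.9 CPM in KO 1, KO 2 and KO 3, against 1472, 1072 and 539.9 CPM in WT 1, WT 2 and WT 3. The library labelled WT 3 was below WT 1 and WT 2 for 7 of 7, and KO 3 was the highest KO library for 6 of 7. Without the library labelled WT 3, mt-Nd1, mt-Nd3 and mt-Nd4 fell, with log2 fold changes of -0.65, -1.69 and -1.34, where the background was 16.1% of all genes. Without both libraries numbered 3 all 7 fell, where it was 22.7%. mt-Nd4 had 80.3, 97.5 and 179 CPM in the KO libraries, against 355, 251 and 88.2 CPM in the WT libraries, with KO 3 between the other KO libraries and WT 2. mt-Nd5, mt-Nd4l, mt-Nd6 and mt-Nd2 had log2 fold changes of -1.19 to -0.63 without the library labelled WT 3 and did not pass. The mitochondrial transcripts are cut from long precursors and can share reads with nuclear copies of mitochondrial DNA, so their values are not independent of each other.

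Levels between genes were compared per kilobase of transcript (median length of the basic protein-coding transcripts in GENCODE vM21), averaged over the 6 libraries. The 36 subunits ran from 23.9 CPM per kb for Ndufb4 to 265 CPM per kb for Ndufa1, an 11.1-fold range, with a median of 132. The 7 core subunits were closer together, from 54.6 CPM per kb for Ndufs1 to 148 CPM per kb for Ndufs7. The 8 Ndufaf genes lay lower, from 14.8 CPM per kb for Ndufaf4 to 45.9 CPM per kb for Ndufaf8, with a median of 18.8. The place of Ndufaf4 rests on 2 libraries. It was at 19.6, 17.9 and 18.6 CPM per kb in the KO libraries, against 6.62, 6.54 and 19.8 CPM per kb in the WT libraries, and Ndufaf3 was at 16.4, 17.9 and 13.6 CPM per kb in the KO libraries, against 19.5, 22.5 and 15.1 CPM per kb in the WT libraries. In the mean over all 6 libraries Ndufb4, Ndufb2 and Ndufs4 were below Ndufaf8, but single libraries differ in this. Ndufs4 was above Ndufaf8 in KO 3, WT 1 and WT 2, and Ndufab1 was below it in WT 1.

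**Figure D5:**
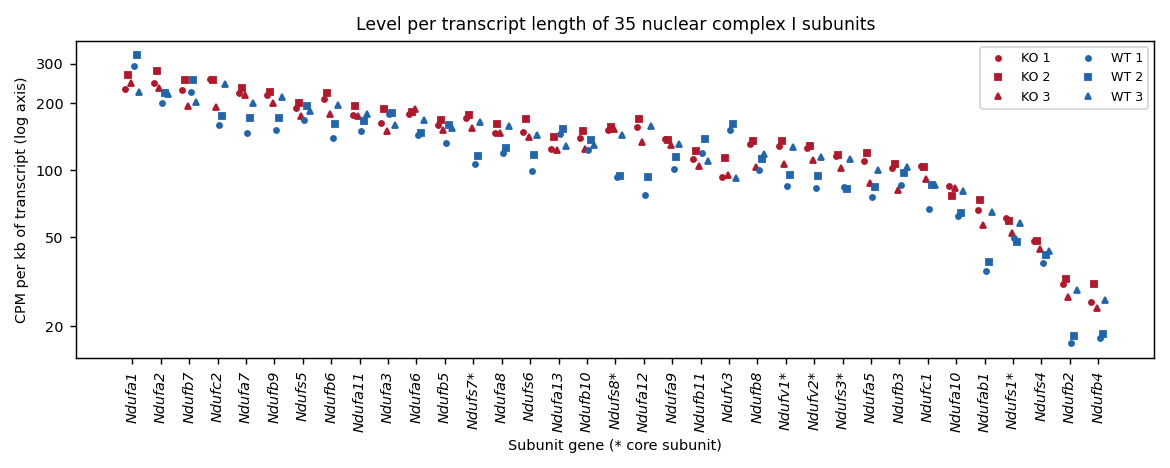
Level in CPM per kb of transcript (log axis) of 35 nuclear subunits in order of their mean, 1 point per library with KO left of WT and core subunits starred. The order runs from Ndufa1 at 265 CPM per kb to Ndufb4 at 23.9 CPM per kb, and the core subunits lie inside this range.

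The 3 KO libraries were all above the 3 WT libraries for 8 of 44 complex I genes (18.2%), where the background was 9.26% of all genes, and all below for none, where it was 9.22%. The 8 were Ndufs8, Ndufa2, Ndufa6, Ndufa7, Ndufs4, Ndufc1, Ndufaf1 and Ndufaf5. Ndufs4, a matrix arm subunit whose loss in mice gives a Leigh-like disease, had 81.9, 82.0 and 75.7 CPM in the KO libraries, against 65.0, 70.8 and 73.6 CPM in the WT libraries. The gap between KO 3 and the library labelled WT 3 was small for it, and the log2 fold change was 0.19 (SE 0.12, edgeR adjusted p 0.406) with all 6 libraries. Ndufa6, a matrix arm subunit that binds the acyl carrier protein, had 68.1, 69.7 and 72.1 CPM in the KO libraries, against 54.7, 55.8 and 64.0 CPM in the WT libraries.

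Other nuclear subunits of oxidative phosphorylation were read to place these values. Of 38 genes of complexes II to V, none passed with all 6 libraries (1 at an unadjusted p below 0.05, none in DESeq2) and 11, or 28.9%, rose without the library labelled WT 3, beside 24 of 44 complex I genes and 17.7% of all genes. Without both libraries numbered 3 the shares were close, with 32 of 44 complex I genes (72.7%) and 27 of 38 genes of complexes II to V (71.1%) higher, beside 22.7% of all genes. The lower share outside complex I therefore depends on the fit, and the difference between the lists was not tested. By complex, 2 of 4 genes of complex II, 5 of 9 of complex III, 0 of 10 of complex IV and 4 of 15 of complex V rose without the library labelled WT 3. Without both libraries numbered 3 these counts were 4 of 4, 8 of 9, 5 of 10 and 10 of 15. The median log2 fold change of the 38 was 0.25 without the library labelled WT 3 and 0.32 without both. Ndufa4, which carries a complex I name but is assigned to complex IV, had 160, 166 and 117 CPM in the KO libraries, against 85.7, 92.7 and 155 CPM in the WT libraries, and it rose without the library labelled WT 3 (log2 0.74, SE 0.16, edgeR adjusted p 0.0128). Of 8 regulators of mitochondrial genes in the table, none passed with all 6 libraries in edgeR (none at an unadjusted p below 0.05, none in DESeq2). Without the library labelled WT 3, 3 of 8 rose (Tfam, Pprc1 and Gabpa, 37.5%), beside 17.7% of all genes. 1 of 8, Yy1, fell (12.5%), beside 16.1% of all genes. Nrf1, whose product binds the motif above, had 68.0, 69.7 and 75.4 CPM in the KO libraries, against 71.8, 68.9 and 71.0 CPM in the WT libraries.

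ILC2 markers were present, 12 of 12, and summed to 11110 to 15090 CPM in the KO libraries and 15110 to 17840 CPM in the WT libraries. The cytokine gene Il5 was the most abundant of them, so the sum does not measure the share of ILC2s. T cell markers (5 of 6 in the table) summed to 23.9 to 25.4 CPM in the KO libraries and 40.5, 41.6 and 22.6 CPM in WT 1, WT 2 and WT 3, so the library labelled WT 3 was near the KO libraries here too. Myeloid markers (5 of 6) summed to at most 2.32 CPM in the KO libraries and 4.92 CPM in the WT libraries, and B cell markers (3 of 4) to at most 14.3 CPM in the KO libraries and 19.5 CPM in the WT libraries. Granulocyte and mast cell markers (3 of 5) summed to at most 3.88 CPM in the KO libraries and 10.3 CPM in the WT libraries, NK and ILC1 markers (2 of 4) to at most 1.05 and 0.753 CPM in the KO and WT libraries, and erythroid markers (2 of 3) to at most 4.61 and 5.47 CPM in the KO and WT libraries. Epithelial and stromal markers (4 of 5, Pecam1 the most abundant) summed to 120 to 140.0 CPM in the KO libraries and 60.9 to 108 CPM in the WT libraries. The library labelled WT 3 was the highest of the WT libraries, as it was for most complex I genes. The cells that the Pecam1 counts came from were not identified. The part of other cells in the complex I values was not tested.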

How the data were processed

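Messenger RNA of lung ILC2s was measured in 3 libraries labelled Atg5-/- and 3 labelled wild type, grouped by sample title. The authors deposited estimated counts per gene, 47.1% to 48.5% of them whole numbers (within 1e-06), and a table of normalized values. The deposited signal in that table equals (estimated count + 1) over a factor of 31.2 to 36.0 that differs by library, and it was not tested. CASAVA 1.8.2, Partek, STAR and the mm10 build appear, without role or order, in the submitters' processing notes. No source used here says how reads that match several genes, or strand, were handled. Coordinates follow the deposited table, and 37 of 46 Nduf genes had the start and end of GENCODE vM21.

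Estimated counts were rounded and tested with edgeR 4.0.16 in R 4.3.3 (TMM, filterByExpr, robust glmQLFit, glmQLFTest), KO over WT, with no covariate and Benjamini-Hochberg adjustment over all genes tested. The threshold was 0.05. Log2 values for distances added 0.5 CPM. A floor of 3 counts was 0.0891 to 0.104 CPM, which covers counting error only. The fitting steps were tested on simulated data. Alternatives were DESeq2 1.42.0, limma-voom (limma 3.58.1), other scalings and filters, the replicate number as a block, and each library left out. Named were core, Ndufaf, mt-Nd and other assembly genes, 6 accessory subunits from each end of the order by fold change, and genes whose groups did not overlap. The members and lists were chosen with earlier results of these data known. Ndufb1 and Coa1 were not analysed here. 1 core subunit is counted in its class and is not reported here.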

Additional observations from a re-analysis of the deposited data

How the results depend on the processing

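With all 6 libraries 0 genes passed in edgeR, and DESeq2 called 323. Leaving out each library in turn gave 0 to 4991 genes, 0 to 24 complex I genes higher and 0 to 1 lower. Only leaving out the library labelled WT 3 gave any, so the calls rest on leaving it out. The weight given to that fit was chosen with earlier results of these data known. Without both libraries numbered 3 there were 6505 genes, 32 complex I genes higher and 2 lower (Ndufv3 and Ndufa1), with medians of 0.53 for core subunits, 0.33 for accessory subunits and 0.87 for Ndufaf genes. Without the library labelled WT 3, and added after the data were seen, DESeq2 gave 5668 genes, library totals 4960 and limma-voom 5184, each with 24 complex I genes higher and 2 lower, and the accessory median by limma-voom was 0.32. Leaving out each library in turn, medians were 0.18 to 0.46 for core subunits, 0.12 to 0.32 for accessory subunits and 0.36 to 0.79 for Ndufaf genes. The median of all genes, 0.02, was -0.0146 to 0.019 with each library left out in turn, 0.000158 with DESeq2 size factors, 0.000157 with DESeq2, -0.0102 with upper-quartile scaling, 0.00561 with library totals, -0.0105 with a filter of 2 CPM in 3 libraries, -0.0239 with no filter and -0.00337 without both libraries numbered 3. It was -0.00763 with DESeq2, -0.00117 with library totals and -0.00338 with limma-voom in the 5 libraries other than WT 3. Of 51 named genes, 48 kept their direction under 19 settings. Ndufa3 (log2 fold change with all 6 libraries -0.05) ranged from -0.18 to 0.023 with each library left out. Ndufb7 (-0.01) ranged from -0.13 to 0.091 and was 0.016 without both libraries numbered 3. Nubpl (-0.08) ranged from -0.33 to 0.12, was 0.21 without both libraries numbered 3, and was 0.10 by DESeq2, 0.10 with library totals and 0.15 by limma-voom without the library labelled WT 3. The cause was not tested. No pairing by replicate number was seen: same-number deviations correlated at -0.0367, 0.0196 and -0.00776, and 1 of 3 KO libraries correlated best with its own number. Deviations within groups of 3 cannot exclude a pairing. With the replicate block 0 genes and 0 complex I genes passed, with a median log2 fold change of 0.28 for core subunits.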
